A study of Mus musculus with 8 samples.

Results

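The 8 genes described here are *Hmgcs1*, *Idi1*, *Fdft1*, *Sqle*, *Lss*, *Cyp51*, *Dhcr7* and *Insig1*, which were taken by name from the 54532 genes of the count table. The first 7 encode enzymes of cholesterol synthesis, and all 8 are known targets of the transcription factor SREBP2. RNA-seq was performed on whole retinas of mouse pups, with 4 *Mettl3*-CKO samples and 4 control samples. The *Mettl3*-CKO pups carried *Six3-Cre* and 2 floxed *Mettl3* alleles, and the controls were littermates whose alleles at these loci are not stated. The sample labels give the age as postnatal day 7, whereas the methods describe younger pups. *Mettl3* encodes the catalytic subunit of the m6A methyltransferase, and *Six3-Cre* acts in retinal progenitor cells, so that vessels, microglia and other cells of different origin keep the gene. The study describes loss of the protein in the central retina. Whether a sample held the retinas of 1 pup or of several is not stated in the sources used here, so the p-values measure the spread between these samples.

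Cholesterol is built from acetyl-CoA through mevalonate, isoprenoid diphosphates, squalene and lanosterol. The output is matched to need by a feedback loop in the endoplasmic reticulum: when sterols are scarce, SCAP carries SREBP2 to the Golgi, proteases release its transcription factor domain, and the genes of the pathway are transcribed together. When sterols are plentiful, INSIG1 holds SCAP back, and *Insig1* is itself an SREBP2 target. In the retina, cholesterol is made locally, with Müller glia regarded as a main site of synthesis, and inherited loss of DHCR7 causes Smith-Lemli-Opitz syndrome, in which the retina is also affected.

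All 8 genes lie at the same coordinates in the GENCODE vM21 annotation of GRCm38 as in the deposited table. *Hmgcs1* lies on chromosome 13 from 119690379 to 119708260 (plus strand) and *Idi1* on chromosome 13 from 8885501 to 8892451 (plus strand). *Fdft1* lies on chromosome 14 from 63145150 to 63179578 (minus strand), *Sqle* on chromosome 15 from 59315077 to 59331192 (plus strand) and *Lss* on chromosome 10 from 76531588 to 76557138 (plus strand). *Cyp51* lies on chromosome 5 from 4081145 to 4104746 (minus strand), *Dhcr7* on chromosome 7 from 143823145 to 143848410 (plus strand) and *Insig1* on chromosome 5 from 28071363 to 28078662 (plus strand). All are protein-coding, and the counts cover their exons. Some exon bases are shared with a gene on the opposite strand, and whether the counting used strand is not stated. For *Fdft1* these are 774 of 4227 exon bases, shared with the abundant gene *Ctsb*. For *Cyp51* they are 166 of 4415, shared with *Akap9*. Neither partner passed the test described below, with log2 fold changes of 0.17 for *Ctsb* and -0.06 for *Akap9*.

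A pair of promoters is shown as an example, those of the enzyme gene and the regulator gene with the highest level per length of transcript. They are RefSeq sequences of GRCm38.p6 on the plus strand, read up to the start of the gene, with the *Hmgcs1* stretch at chr13:119690101-119690350 and the *Insig1* stretch at chr5:28071162-28071362. Capitals mark matches on either strand to the SREBP element TCACNCCAC, the E-box CACGTG, the NF-Y box CCAAT and the Sp1 box GGGCGG. No matches of different motifs overlapped. The SREBP element is matched in the *Hmgcs1* stretch and not in the *Insig1* stretch.
Hmgcs1: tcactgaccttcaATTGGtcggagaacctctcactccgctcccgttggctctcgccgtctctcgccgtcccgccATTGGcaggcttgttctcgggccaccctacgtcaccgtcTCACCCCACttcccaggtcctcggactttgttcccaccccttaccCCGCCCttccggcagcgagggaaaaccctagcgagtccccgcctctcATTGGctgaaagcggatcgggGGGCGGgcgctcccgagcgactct
Insig1: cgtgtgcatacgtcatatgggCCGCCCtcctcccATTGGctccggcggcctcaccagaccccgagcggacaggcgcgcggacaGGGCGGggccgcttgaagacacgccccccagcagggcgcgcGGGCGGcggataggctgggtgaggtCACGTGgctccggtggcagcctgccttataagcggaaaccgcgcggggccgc

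The RefSeq promoter table held 6 of the 8 genes, without *Fdft1* and *Sqle*. In the 250 bases before a start site, the SREBP element was found in 1 of the 6, *Hmgcs1*, where it begins 137 bases before the start, and in 1.22% of 27025 genes with a promoter in the table. The E-box was found in 2 of the 6, *Dhcr7* and *Insig1*, and in 6.86% of all genes. All 6 held both an NF-Y box and an Sp1 box, which were found in 37.5% and 35.4% of all genes. A gene was counted if any of its windows matched, and the 6 genes had 8 windows. The E-box of *Dhcr7* lay in a window (chr7:143823149-143823398) with no other match. Its NF-Y boxes lay in another window (chr7:143829964-143830213). NF-Y and Sp1 are known partners of SREBPs at sterol-regulated promoters. These matches describe the letters of the windows only.

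The libraries held between 16227095 and 20281517 counts, and a floor of 3 counts equals 0.148 to 0.185 CPM. CPM, the count relative to the library total, is scaled below by edgeR's TMM factors. Markers of retinal neurons were present in every sample. The targeted gene *Mettl3* was at 33.8, 32.5, 29.4 and 29.3 CPM in control replicates 1 to 4 and at 21.1, 29.6, 21.3 and 24.3 CPM in the *Mettl3*-CKO samples in order, and its log2 fold change of -0.38 missed the threshold in edgeR's test (adjusted p = 0.0602). These counts cover the whole gene, floxed exons or not, and 933 of its 5076 exon bases are shared with *Tox4*. A pair of controls stood apart. Control replicate 1 differed most from the rest of its group, with a mean chi-square of 35.6 per gene against 15.1 to 23.6 for the other controls. Control replicate 4 held lens RNA, with 2183 CPM summed over 8 lens markers against 3.78 to 43.1 CPM in the other 7 samples. For the 8 genes and the sterol and lipid genes called with all samples, values without these libraries are given where a call changed.

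Levels were compared between genes after division by the deposited gene length, which counts all annotated exon bases (FPKM). Over the 8 samples, *Hmgcs1* had the highest mean level at 35.6 FPKM, followed by *Insig1* at 24.0 FPKM. *Cyp51*, *Sqle* and *Fdft1* followed at 16.7, 14.6 and 13.3 FPKM, and *Lss*, *Idi1* and *Dhcr7* were lowest at 7.07, 6.56 and 6.32 FPKM. Within groups the order of some neighbours turned. *Lss* led *Idi1* and *Dhcr7* in the controls, at 7.20, 5.77 and 5.54 FPKM, and was below them in *Mettl3*-CKO retinas, at 6.94, 7.35 and 7.10 FPKM. *Fdft1* was below *Sqle* in the controls, at 11.4 against 14.1 FPKM, and at 15.2 against 15.1 FPKM in *Mettl3*-CKO retinas. The lowest sample of *Hmgcs1* lay above the highest of *Insig1*, as did *Insig1* over *Cyp51* and *Fdft1* over *Lss*. The ranges of *Cyp51* and *Sqle*, of *Sqle* and *Fdft1*, of *Lss* and *Idi1* and of *Idi1* and *Dhcr7* overlapped. Within single samples, *Cyp51* exceeded *Sqle* in 8 of 8, *Sqle* exceeded *Fdft1* in 6 of 8, *Lss* exceeded *Idi1* in 5 of 8 and *Idi1* exceeded *Dhcr7* in 6 of 8.

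**Figure D1:**
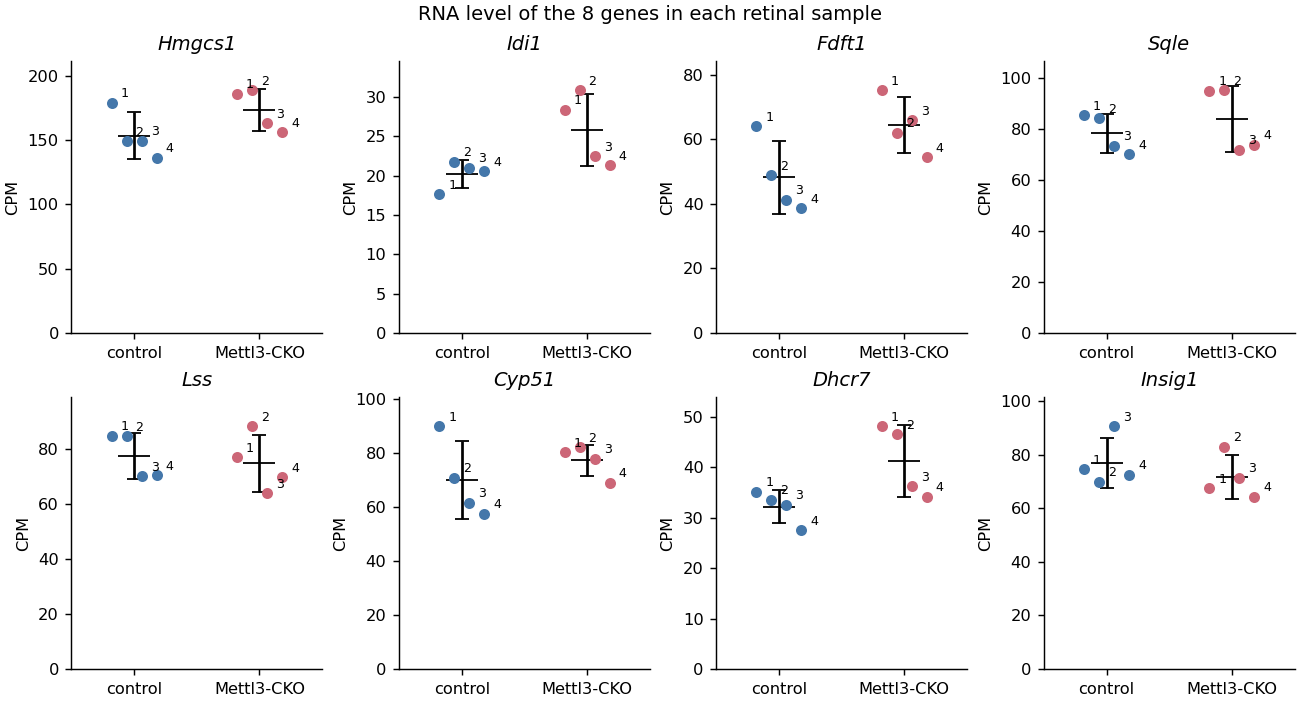
RNA level in CPM (TMM scaling) of each of the 8 genes in control (blue) and *Mettl3*-CKO (red) retinas. Points are samples labelled with their replicate number, and bars are the mean and SD of 4 samples. The groups overlap for all 8 genes, and *Fdft1*, *Idi1* and *Dhcr7* have the largest differences relative to the control mean.

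The comparison asked whether these genes differ between *Mettl3*-CKO and control retinas. None of the 8 passed the threshold of an adjusted p of 0.05 in either direction (edgeR's quasi-likelihood test, Benjamini-Hochberg adjustment over the 17998 genes tested). Over all genes tested, 6.49% passed it as higher and 4.05% as lower in *Mettl3*-CKO retinas, so that fewer than 1 of 8 genes would be called at that share and the count of 0 does not set these genes apart. At an unadjusted p under 0.05 in edgeR, 3 of the 8 were higher and 0 lower, where 13.5% of all genes were higher and 11.1% lower. After adjustment, DESeq2 called 0 of the 8, against 8.38% of all genes higher and 5.79% lower. Limma voom with sample quality weights called 1, *Fdft1*, against 11.9% of all genes higher and 8.71% lower. With no filter on low counts, edgeR also called *Fdft1* (adjusted p = 0.0284), against 3.86% of the 34486 genes then tested. With the replicate number as a block, edgeR called 2 of the 8 higher, where 1198 of all genes were higher. These were *Fdft1* (adjusted p = 0.0211) and *Dhcr7* (adjusted p = 0.0395). The log2 fold change was above 0 for 6 of the 8 genes, with a median of 0.16, against a median of -0.01 and 48.2% above 0 over all genes tested. For 0 of the 8 genes did every *Mettl3*-CKO sample lie above every control, against 9.77% of all genes. In whole-retina RNA, fewer cells of a type and less RNA per cell cannot be told apart.

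*Hmgcs1* encodes HMG-CoA synthase, which acts early in the pathway, ahead of mevalonate. It was at 179, 149, 149.6 and 136 CPM in control replicates 1 to 4 and 186, 189, 163 and 156 CPM in the corresponding *Mettl3*-CKO samples. The *Mettl3*-CKO values were above those of controls 2 to 4, but control replicate 1 lay above 2 of them. The means were 154 ± 18.1 CPM and 174 ± 16.3 CPM (SD, n = 4 each), a log2 fold change of 0.18 (95% confidence interval -0.04 to 0.39, adjusted p = 0.305 from edgeR).

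*Idi1* encodes isopentenyl diphosphate isomerase, which interconverts the isoprenoid units from which longer chains are built. It was at 17.7, 21.7, 21.0 and 20.5 CPM in control replicates 1 to 4 and at 28.4, 30.8, 22.5 and 21.3 CPM in the *Mettl3*-CKO samples in order. *Mettl3*-CKO replicates 1 and 2 were well above the controls, whereas replicates 3 and 4 were close to them. The means were 20.2 ± 1.79 CPM and 25.7 ± 4.60 CPM (SD, n = 4 each), a log2 fold change of 0.35 (interval 0.06 to 0.63, adjusted p = 0.116 from edgeR).

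*Fdft1* encodes squalene synthase, which commits farnesyl diphosphate to sterols. It was at 64.0, 48.8, 41.2 and 38.6 CPM in control replicates 1 to 4 and at 75.1, 61.9, 65.9 and 54.3 CPM in the *Mettl3*-CKO samples in order. All *Mettl3*-CKO samples lay above controls 2 to 4, and control replicate 1 lay above 2 of them. The means were 48.1 ± 11.4 CPM and 64.3 ± 8.67 CPM (SD, n = 4 each), a log2 fold change of 0.42 (interval 0.09 to 0.74, adjusted p = 0.101 from edgeR). The part of the exon bases shared with *Ctsb* in this value was not tested.

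*Sqle* encodes squalene epoxidase, a rate-limiting enzyme of the sterol branch. Its values were 85.3, 84.2, 73.4 and 69.98 CPM in control replicates 1 to 4 and 94.9, 95.1, 71.7 and 73.7 CPM in the *Mettl3*-CKO samples in order. Each group split into a pair of higher and a pair of lower samples, and the lower pairs overlapped. The log2 fold change was 0.10 (interval -0.15 to 0.35, adjusted p = 0.655 from edgeR). *Lss*, which encodes lanosterol synthase, the enzyme that folds the squalene chain into the first sterol, was at 85.0, 84.7, 70.3 and 70.5 CPM in controls and at 77.2, 88.4, 64.1 and 69.8 CPM in *Mettl3*-CKO retinas. Its *Mettl3*-CKO samples spread past the range of the controls at both ends, with a log2 fold change of -0.05 (interval -0.30 to 0.19, adjusted p = 0.832 from edgeR).

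*Cyp51* encodes lanosterol demethylase, the first enzyme to act on lanosterol. It was at 89.8, 70.7, 61.5 and 57.5 CPM in control replicates 1 to 4 and at 80.2, 82.0, 77.9 and 68.9 CPM in the *Mettl3*-CKO samples in order. Control replicate 1 had the highest value of all samples, and the other controls were spread below. The log2 fold change was 0.14 (interval -0.14 to 0.42, adjusted p = 0.547 from edgeR). *Dhcr7* encodes the reductase of the final step to cholesterol in one branch of the pathway, and was at 35.2, 33.6, 32.6 and 27.5 CPM in controls and at 48.2, 46.6, 36.3 and 34.2 CPM in *Mettl3*-CKO retinas. As for *Idi1*, *Mettl3*-CKO replicates 1 and 2 were well above the controls and replicate 4 fell among them. The means were 32.2 ± 3.31 CPM and 41.3 ± 7.08 CPM (SD, n = 4 each), a log2 fold change of 0.36 (interval 0.09 to 0.63, adjusted p = 0.0907 from edgeR).

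*Insig1*, the sterol-dependent brake on SREBP2, differed from the enzymes in the sign of its fold change, except for *Lss*. Its values were 74.6, 69.9, 90.7 and 72.6 CPM in control replicates 1 to 4 and 67.6, 83.1, 71.5 and 64.4 CPM in the *Mettl3*-CKO samples in order. The groups overlapped widely, with a log2 fold change of -0.10 (interval -0.34 to 0.13, adjusted p = 0.616 from edgeR). Taken singly, the two-sided exact permutation test of log2 CPM gave p = 0.0571 for *Idi1* and for *Dhcr7* and p = 0.0857 for *Fdft1*, where 4 samples against 4 cannot go below 0.0286, and p between 0.143 and 0.657 for the other 5 genes.

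Leaving out control replicate 1 changed the most calls among the single samples. Without it, edgeR called 4 of the 8 genes higher in *Mettl3*-CKO retinas, against 10.3% of the 18235 genes then tested. These were *Hmgcs1* (log2 fold change 0.26, adjusted p = 0.0402), *Fdft1* (0.59, adjusted p = 0.00296), *Cyp51* (0.29, adjusted p = 0.047) and *Dhcr7* (0.40, adjusted p = 0.0351). The median log2 fold change of the 8 genes was then 0.27. With any one of the other 7 samples left out, 0 of the 8 were called, and the median lay between 0.09 and 0.21, lowest without control replicate 4. Without control replicates 1 and 4 together, 1 gene was called, *Fdft1* (0.51, adjusted p = 0.0219).

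**Figure D2:**
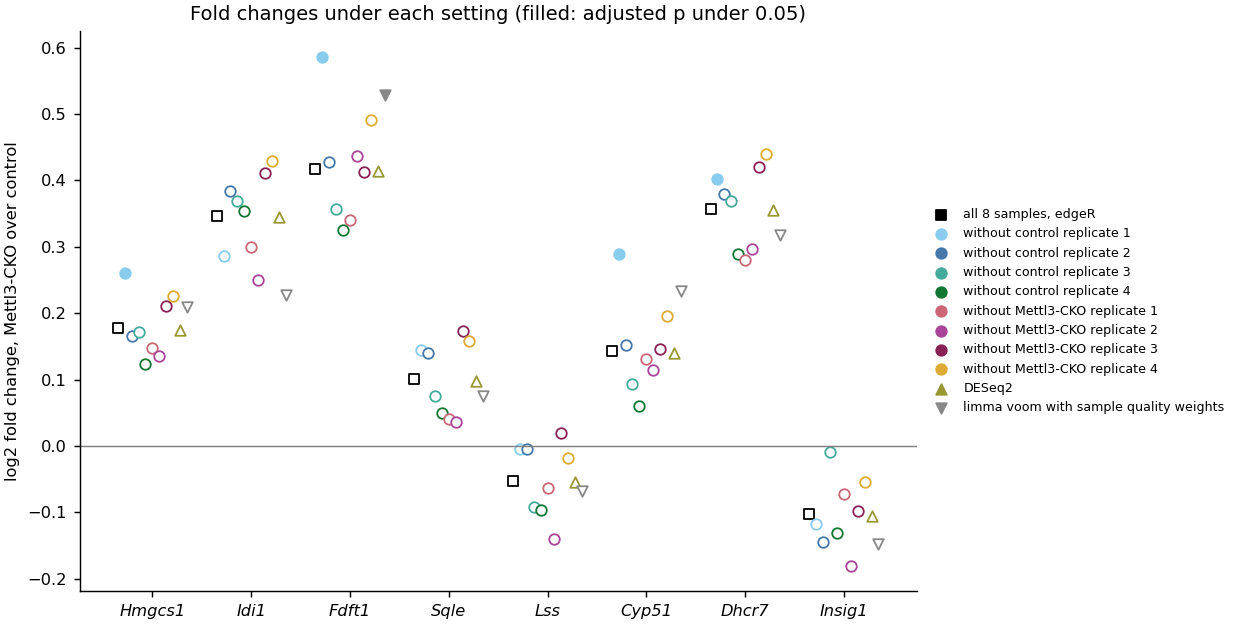
Log2 fold change of each of the 8 genes with all samples, with each sample left out in turn, and with DESeq2 or limma voom in place of edgeR. Filled symbols passed an adjusted p of 0.05. Filled symbols appear for 4 genes without control replicate 1 and for *Fdft1* with limma voom.

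The samples of each group fell in a similar order for most of the 8 genes. Among the controls, replicate 1 had the highest level of 6 of the 8 genes and replicate 4 the lowest of 5. Among the *Mettl3*-CKO samples, replicate 2 had the highest level of 6 and replicate 4 the lowest of 6. Summed over the 8 genes, the levels were 631, 563, 540.3 and 494 CPM in control replicates 1 to 4 and 658, 677, 573 and 543 CPM in the *Mettl3*-CKO samples in order. Control replicate 1 was thus above *Mettl3*-CKO replicates 3 and 4, and the ranges overlapped.

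Markers of dividing progenitors and of Müller glia were summed in the same samples. Summed over 11 progenitor and cell cycle markers, the levels were 2139, 2847, 2594 and 2576 CPM in control replicates 1 to 4 and 3841, 3959.9, 3485 and 2858 CPM in the *Mettl3*-CKO samples in order. Every *Mettl3*-CKO sample exceeded every control in this sum. Of the 11 markers, edgeR called 3 higher, against 6.49% of all genes, DESeq2 called 7 and limma voom 5, and none was called lower. The *Mettl3*-CKO samples had the same order as in the sum of the 8 genes, and the controls did not. Control replicate 1 was the highest control in the sum of the 8 genes and the lowest in the progenitor sum. Over 12 Müller markers the sums were 3426, 2784, 2801 and 2563 CPM in controls and 2564, 2466, 2714 and 2564 CPM in *Mettl3*-CKO retinas. Of the 10 Müller markers tested, edgeR called *Rlbp1* and *Crym* lower and *Glul* higher, and DESeq2 and limma voom each called 3 lower and 1 higher. Control replicate 1 had the highest Müller sum and the lowest progenitor sum of the 8 samples. The part of these cell types in the levels of the 8 genes was not tested.

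**Figure D3:**
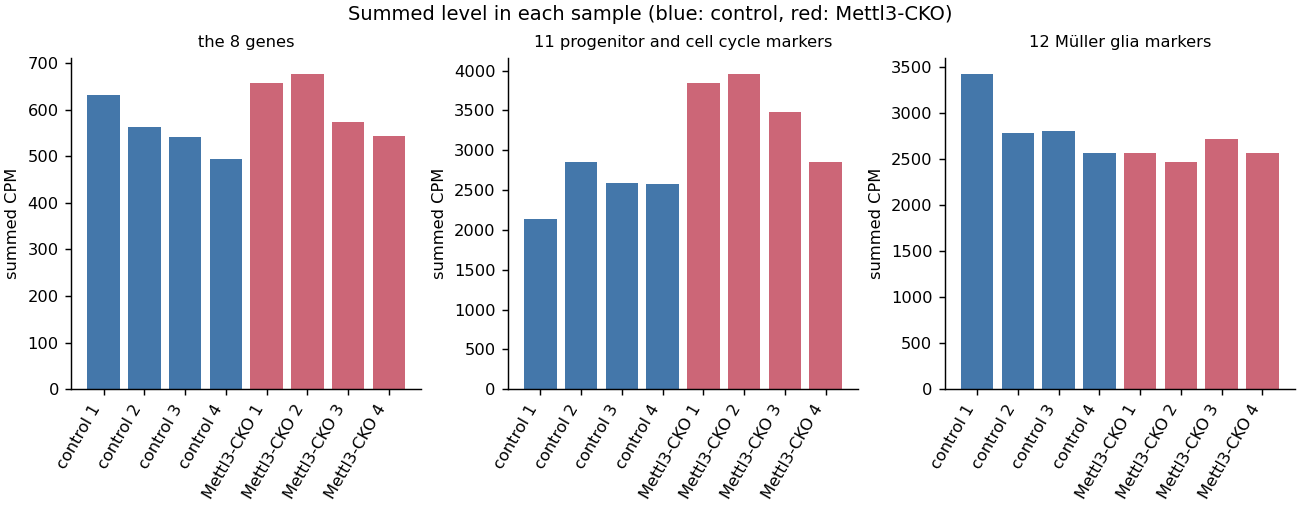
Summed CPM in each sample of the 8 genes, of 11 progenitor and cell cycle markers and of 12 Müller glia markers. Bars are single samples. The 8 genes are highest in *Mettl3*-CKO replicates 1 and 2 and in control replicate 1, the progenitor markers are higher in every *Mettl3*-CKO sample than in any control, and the Müller markers are highest in control replicate 1.

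The other enzymes of the pathway were tested in the same fit. All 13 listed passed the filter on low counts, and none was called higher or lower by edgeR or called by DESeq2, whereas limma voom called 1 higher and 1 lower. At an unadjusted p under 0.05 in edgeR, 1 was higher, against 13.5% of all genes. The gene was *Sc5d*, the desaturase shortly before DHCR7, with a log2 fold change of 0.22 (SE 0.09, edgeR adjusted p = 0.142). The fold change was above 0 for 10 of the 13, with a median of 0.10. Without control replicate 1, 2 of the 13 were called higher, against 10.3% of all genes then tested. *Fdps*, which makes farnesyl diphosphate, was listed at only 0.77 FPKM over all samples, far below its neighbours in the pathway, and this level is given as uncertain.

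**Figure D4:**
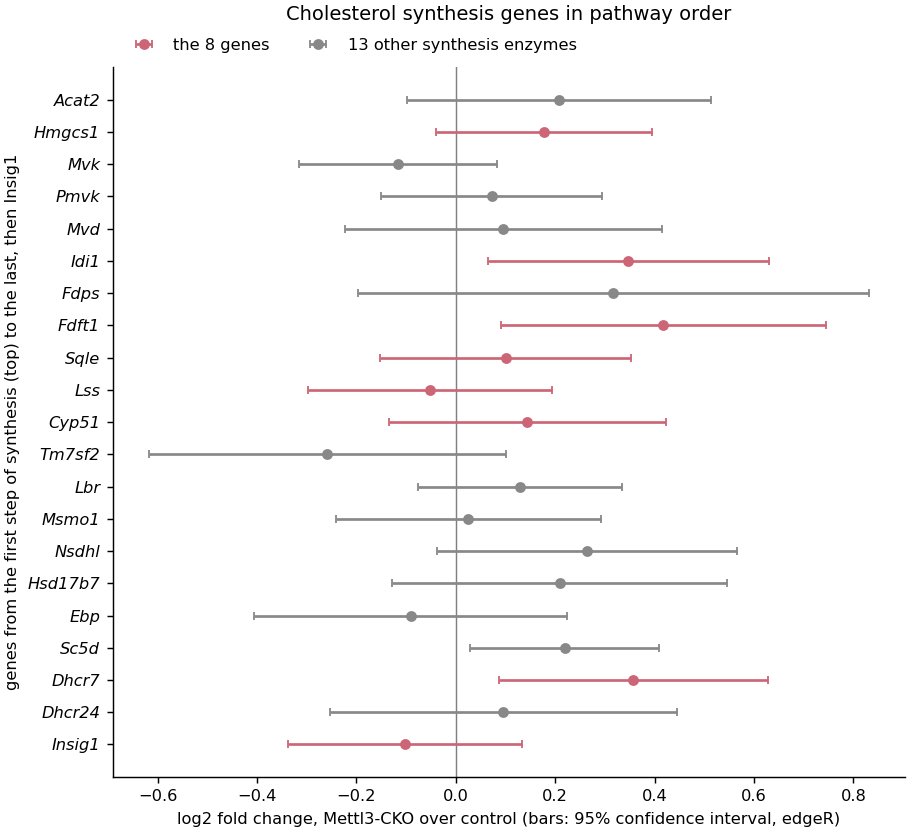
Log2 fold change, *Mettl3*-CKO over control, of 20 enzymes from the first step of cholesterol synthesis to the last and of *Insig1*, with 95% confidence intervals from edgeR. Red points are the 8 genes and grey points the 13 other enzymes. The intervals of *Idi1*, *Fdft1*, *Dhcr7* and *Sc5d* lie above 0 before adjustment, and those of the other genes include 0.

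The genes that switch the pathway on were examined next. Of 11 genes of SREBP cleavage and of the sterol-dependent degradation of its target enzymes, edgeR called 1 lower and none higher. At an unadjusted p under 0.05, 1 was higher and 2 lower. Of all genes tested, edgeR called 4.05% lower and 6.49% higher, and 11.1% and 13.5% before adjustment. DESeq2 called 1 in each direction, and limma voom called 2 higher and 3 lower. The one called lower was *Srebf1*, which encodes SREBP1, the relative of SREBP2 that mainly drives fatty acid synthesis. It was at 201, 209, 217 and 199 CPM in control replicates 1 to 4 and at 116, 130.3, 142 and 140.8 CPM in the *Mettl3*-CKO samples in order, with no overlap. Its log2 fold change was -0.64 (SE 0.08, edgeR adjusted p = 0.000923). Of its 5634 exon bases, 109 are shared with *Rai1* on the other strand. *Srebf2*, which encodes SREBP2, was at 188, 234, 244 and 211 CPM in controls and at 176, 239, 169.9 and 181 CPM in *Mettl3*-CKO retinas, and its groups overlapped (log2 fold change -0.19, interval -0.45 to 0.06, adjusted p = 0.341 from edgeR).

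Other targets of SREBP2 in uptake and sterol transfer gave 1 edgeR call among 6, which was higher, against 6.49% of all genes. *Npc1l1*, which encodes a sterol uptake protein best known from the gut, had between 8 and 12 counts in the controls and between 15 and 70 in *Mettl3*-CKO retinas, a log2 fold change of 1.95 (adjusted p = 0.0117 from edgeR), so that its level was low in both groups. The median over the 6 genes was -0.01.

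Of 12 SREBP1 targets in fatty acid synthesis, edgeR called 1 lower and none higher, against 4.05% and 6.49% of all genes. At an unadjusted p under 0.05, 4 were lower and 1 higher, against 11.1% and 13.5% of all genes. DESeq2 called 2 lower (5.79% of all genes) and limma voom 3 (8.71%), and neither called any higher. The edgeR call was *Thrsp*, with 28 to 53 counts in controls and 10 to 31 in *Mettl3*-CKO retinas (log2 fold change -1.38, adjusted p = 0.0326 from edgeR). *Fasn*, fatty acid synthase, had a log2 fold change of -0.14 (adjusted p = 0.488 from edgeR). The median over the 12 genes was -0.11. Without control replicate 1, 1 of the 12 was called higher, against 10.3% of the 18235 genes then tested.

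The genes that remove cholesterol from cells were compared in the same way. LXR receptors sense oxysterols and switch on efflux pumps. Of 8 LXR and efflux genes, edgeR called 3 lower and none higher, where it called 4.05% of all genes lower, and the median log2 fold change was -0.32. *Abca1*, which encodes the pump that loads cholesterol onto apolipoproteins, was at 116, 100.6, 143.3 and 143.04 CPM in control replicates 1 to 4 and at 47.7, 43.95, 65.2 and 100.3 CPM in the *Mettl3*-CKO samples in order. The highest *Mettl3*-CKO sample lay just below the lowest control, and the log2 fold change was -0.97 (SE 0.22, edgeR adjusted p = 0.0164). *Nr1h2*, which encodes LXR beta, went from 96.4 ± 3.18 CPM to 70.3 ± 8.22 CPM (SD, n = 4 each), a log2 fold change of -0.46 (adjusted p = 0.0106 from edgeR). *Abcg4*, a neuronal sterol exporter, had a log2 fold change of -0.32 (adjusted p = 0.0468 from edgeR). *Apoe*, the main apolipoprotein made by glia, had a log2 fold change of -0.06 (interval -0.43 to 0.30, adjusted p = 0.865 from edgeR). Rod markers were also lower in *Mettl3*-CKO retinas. Summed over 9 genes they were between 2538 and 3792 CPM in controls and between 1304 and 2399 CPM in *Mettl3*-CKO retinas, with 6 of 9 called lower. Among the controls the order differed: the rod sum was highest in replicate 1 and lowest in replicate 3, whereas *Srebf1* was highest in replicate 3. Of 9 vascular markers, 7 were called lower, with a median log2 fold change of -1.34, although the ranges of their summed level overlapped. Pigment epithelium markers summed to between 72.4 and 98.9 CPM in controls and between 41.9 and 62.5 CPM in *Mettl3*-CKO retinas, with 4 of 6 called lower. The part of these cell types in the values of *Srebf1* and of the LXR and efflux genes was not tested.

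Of 12 tested genes of cholesterol trafficking, esterification and oxysterol formation, edgeR called none, with 1 higher and 1 lower at an unadjusted p under 0.05. DESeq2 called 1 lower and none higher, and limma voom called 1 in each direction. A further gene of this list, *Ch25h*, had 0 counts in every sample. Of 9 genes on the branches that leave the pathway for protein prenylation, ubiquinone and dolichol, edgeR called 1 higher, against 6.49% of all genes. The gene was *Dhdds*, which encodes a subunit of the enzyme that makes the dolichol chain. It was at 108, 125, 134.03 and 133.8 CPM in control replicates 1 to 4 and at 174, 168, 161 and 181 CPM in the *Mettl3*-CKO samples in order, with no overlap (log2 fold change 0.45, SE 0.09, edgeR adjusted p = 0.00807). At an unadjusted p under 0.05 in edgeR, 4 of the 9 were higher and 1 lower, against 13.5% and 11.1% of all genes. Limma voom called 2 higher and none lower, against 11.9% and 8.71% of all genes. Every *Mettl3*-CKO sample lay above every control for 4 of the 9, *Dhdds*, *Ggps1*, *Pdss1* and *Pdss2*, against 9.77% of all genes. The median over the 9 genes was 0.12. *Srebf1*, *Nr1h2* and *Dhdds* were called in all 16 other fits tried. *Abca1* (adjusted p = 0.0815) and *Npc1l1* (adjusted p = 0.055) were not called without *Mettl3*-CKO replicate 1 and were called in the other 15. *Thrsp* was called in 10 of the 16 and *Abcg4* in 7. Without control replicate 4, neither *Thrsp* (adjusted p = 0.0769) nor *Abcg4* (adjusted p = 0.0558) was called, nor were they without control replicates 1 and 4 together (adjusted p = 0.151 and 0.0579). Both calls were also lost without control replicate 2 (adjusted p = 0.0579 and 0.147) and without *Mettl3*-CKO replicate 1 (0.123 and 0.178), 2 (0.0900 and 0.126) or 3 (0.0979 and 0.102), and *Abcg4* without control replicate 3 (0.0793).

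**Figure D5:**
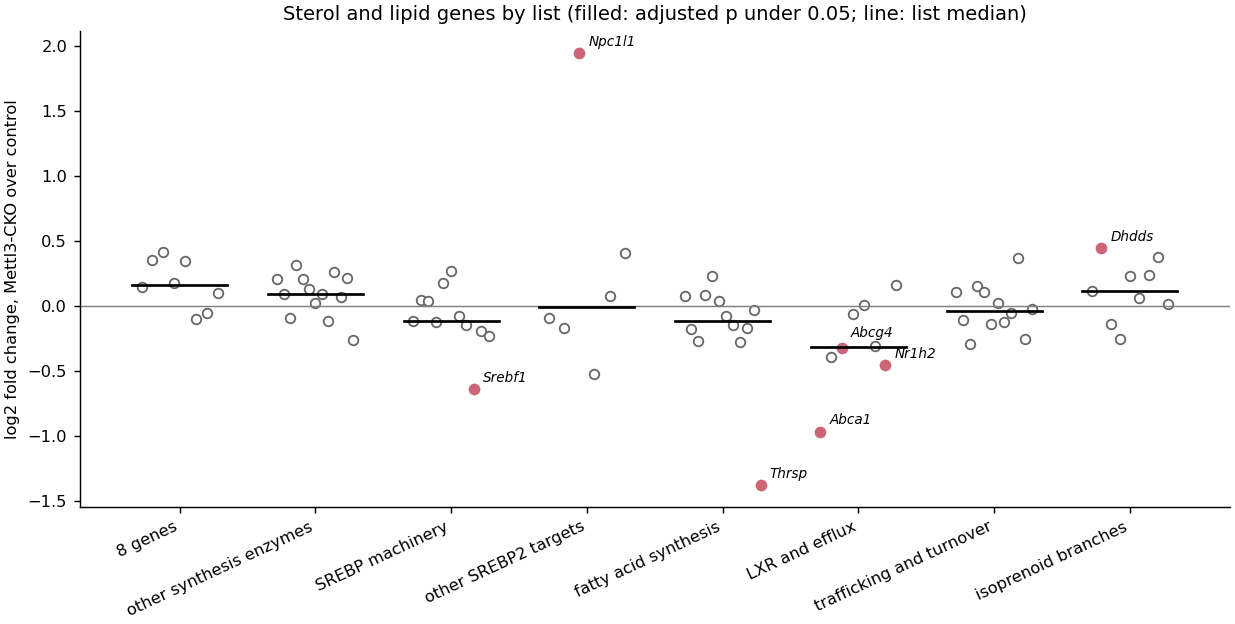
Log2 fold change, *Mettl3*-CKO over control, of each tested gene in 8 lists of sterol and lipid genes. Filled red points passed an adjusted p of 0.05 in edgeR and are named, open points did not, and black lines are list medians. The medians of the 8 genes, the other enzymes and the isoprenoid branches lie above 0, and that of the LXR and efflux genes is lowest, at -0.32.

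To find genes whose levels followed those of the 8 genes within groups, each gene's log2 CPM deviations from its group means were correlated over the 8 samples with the mean deviation of the 8 genes. Among 14317 genes with a mean log2 CPM of at least 1, the most similar outside the lists were *Eif4a3* (Pearson r = 0.987), *Nsun6* (0.981), *Cnpy4* (0.976), *Hsd17b4* (0.967) and *Snx3* (0.966). *Hsd17b4* encodes a peroxisomal enzyme of fatty acid oxidation, and *Eif4a3* a core protein of the exon junction complex. Of the 13 other synthesis enzymes, 0 were among the 100 most similar genes, and the nearest was *Mvd* (r = 0.840, rank 277). Several of the 8 genes were also outside those 100, although each is part of the mean. *Dhcr7*, *Hmgcs1* and *Sqle* ranked 8, 25 and 27. *Lss*, *Cyp51* and *Fdft1* ranked 230, 439 and 713, and *Idi1* (r = 0.528) and *Insig1* (r = 0.307) ranked 2338 and 4598. These values describe 8 samples with the same library preparation, and with so many genes high values of r arise readily.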

How the data were processed

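RNA-seq counts of 8 retinal samples were analysed. According to the methods and the submitters' processing notes, the authors aligned filtered read pairs against GRCm38 (HISAT2) and assigned them to genes (featureCounts). The deposited values are raw counts per gene, whole numbers whose totals differ between samples (16227095 to 20281517). The annotation release and the strand setting are not given in the sources used here.

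Tests used edgeR 4.0.16 under R 4.3.3 (filterByExpr by group, TMM, glmQLFit, glmQLFTest), with Benjamini-Hochberg adjustment over the 17998 of 54532 genes that passed and a threshold of 0.05. A standard error is the absolute log2 fold change divided by the square root of F. The paper's package, DESeq2 1.42.0, and limma 3.58.1 were alternatives, and the others were scaling, filtering, a replicate block and samples left out. CPM is the count relative to the TMM-scaled library total, FPKM is the CPM divided by the deposited gene length in kilobases, and log2 CPM used a prior count of 2. No 2 libraries were close enough to be 1 library (lowest chi-square 5.46 per gene). Intervals cover the spread between samples, and the floor of 3 counts covers counting error only.

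The 8 genes, the gene lists (7 other lists of sterol and lipid genes and 10 lists of cell type markers) and the motifs were chosen with earlier results of these data known, and 3 list genes are not reported here and were left out of the lists and their counts. By rule, the 8 genes, *Mettl3*, the list genes that passed the test and the 5 most similar genes outside the lists are named, and other list genes may be. Of the markers not given elsewhere, the edgeR test called 2 higher and 1 lower of 9 other neuronal, 0 and 7 of 9 vascular, 0 and 0 of 6 microglial (limma voom 4 and 0, DESeq2 0 and 0, unadjusted 1 and 0), 1 and 2 of 7 astrocyte and oligodendrocyte, 0 and 4 of 6 pigment epithelium, 0 and 2 of 4 lens and 0 and 2 of 3 erythrocyte genes. For the lens genes, DESeq2 and limma voom called 0 higher and 0 lower. Their summed level was 2183 CPM in control replicate 4, against 3.78 to 43.1 CPM in the other samples. Single-cell RNA-seq, MeRIP-seq and protein data were not analysed here.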

Additional observations from a re-analysis of the deposited data

Results flagged for a closer look

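*Mettl3*, the 8 genes and the other tested genes of the sterol and lipid lists were searched for a single sample of a group of 4 that lay apart by Dixon's 95% criterion. This was met in 6 of 160 gene and group combinations, fewer than the 8 that chance would give, and in 0 for the 8 genes and *Mettl3*. On the log2 CPM scale, *Apoe* was at 8.81 in control replicate 1 against 8.10 to 8.13 in the other controls. *Vldlr*, a lipoprotein receptor, was at 7.14 in control replicate 1 against 6.93 to 6.95. *Stard4*, a sterol transfer protein, was at 5.12 in control replicate 2 against 5.22 to 5.24. *Fads1*, a fatty acid desaturase, was at 7.32 in *Mettl3*-CKO replicate 2 where its group otherwise spanned 6.74 to 6.83, and *Insig2*, the relative of *Insig1*, was at 4.82 in the same sample against 5.02 to 5.04. *Thrsp* was at 0.70 in *Mettl3*-CKO replicate 4 against -0.59 to -0.53, from 31 counts against 10 to 11.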

How the results depend on the processing

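The median log2 fold change of the 8 genes was above 0 in every fit tried (0.09 to 0.27), and *Idi1*, *Sqle*, *Lss* and *Insig1* were called in none. The count called higher was 0 with DESeq2, with each other scaling and at an adjusted p under 0.01. It was 1 with limma voom (*Fdft1*, 0.53), 1 with no filter on low counts (*Fdft1*, 0.42) and 1 without control replicates 1 and 4 together (*Fdft1*, 0.51), and ran from 0 to 4 when single samples were left out. In those fits the log2 fold change of *Fdft1* ran from 0.32 to 0.59, of *Dhcr7* from 0.28 to 0.44, of *Hmgcs1* from 0.12 to 0.26, of *Cyp51* from 0.060 to 0.29, of *Idi1* from 0.25 to 0.43, of *Sqle* from 0.04 to 0.17 and of *Insig1* from -0.18 to -0.01. *Lss* ran from -0.14 to 0.020 and changed sign without *Mettl3*-CKO replicate 3 (0.020). The cause of these differences was not tested. *Mettl3* was at -0.38 with DESeq2 (adjusted p = 0.032) and at -0.39 with limma voom (adjusted p = 0.0139), both past the threshold, and ran from -0.49 to -0.31 with one sample left out, passing it without *Mettl3*-CKO replicate 2 (-0.49, edgeR adjusted p = 0.0185).

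Control and *Mettl3*-CKO samples share replicate numbers but come from different pups. The deviations of same-numbered samples correlated at -0.11, 0.22, -0.11 and 0.25. These few values cannot decide whether the numbers pair the samples, and the main fit used no block. With the replicate number as a block, 2 of the 8 genes were called higher, *Fdft1* (0.44) and *Dhcr7* (0.35), and 2 of the 4 *Mettl3*-CKO samples correlated best with the control of their own number.

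Over all genes, 1168 were called higher and 729 lower. An adjusted p under 0.01 gave 439 and 147, limma voom gave 2142 and 1568, and leaving out one sample gave 509 to 1882 and 185 to 1289, where the low numbers came without *Mettl3*-CKO replicate 1 and the high ones without control replicate 1. The number of fatty acid genes called lower ran from 0 to 3 over all fits. The median over all genes lay between -0.02 and 0.00 in every fit. Depth does not limit the 8 genes, which had at least 330 counts in every sample.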
